A study of Homo sapiens with 4 samples.

Results

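The 10 genes of the microRNA pathway examined here are the 3 TNRC6 genes, the 4 Argonaute genes AGO1 to AGO4, and the processing genes DICER1, DROSHA and DGCR8. They were taken by symbol from the annotation of the Affymetrix PrimeView array, a 3′ expression array, and every probe set paired with one of these symbols alone was used. This gave 40 probe sets for 10 genes, of 44988 probe sets for 18132 genes paired with 1 gene. HCT116 and Caco-2, both established human colorectal cancer cell lines, had been transfected for 3 days with BORIS siRNA or with a negative control siRNA, and total RNA of each of the 4 cultures was hybridised to 1 array. BORIS is the DNA-binding zinc finger protein encoded by CTCFL. The 4 groups were HCT116 with BORIS siRNA, HCT116 with control siRNA, Caco-2 with BORIS siRNA and Caco-2 with control siRNA. With 1 array a group, no p-value can be given for an siRNA difference inside 1 line. The genes were chosen by symbol with their BORIS minus control siRNA differences on these same arrays known, so those differences are a description.

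In the microRNA pathway, the microprocessor of DROSHA and DGCR8 cuts the hairpin precursor out of the primary transcript in the nucleus, and DICER1 cuts the exported hairpin into a short duplex. One strand is loaded into an Argonaute protein, and AGO2 is the Argonaute best known for cutting a fully paired target. TNRC6 proteins, also called GW182 proteins, bind Argonaute through glycine-tryptophan repeats and recruit the CCR4-NOT and PAN2-PAN3 deadenylases, which shorten the poly(A) tail of the target. The same Argonaute proteins also carry out silencing by a transfected siRNA, such as those used in both arms here.

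Values are log2 expression values as deposited. A probe set counted as expressed in a line if either of its arrays there showed it at or above that array's median, 5.46 to 5.48. The level under which 95% of the probe sets of olfactory receptor genes fell, 4.80 to 5.15, was taken as background. Of the 40 member probe sets, 29 were expressed in HCT116 and 31 in Caco-2, with at least 1 for each of the 10 genes in both lines, and 9 lay below background on all 4 arrays. The brightest probe set of a gene, by its 4-array mean, stands for the gene and is called representative. No level of one probe set is set against that of another, since probes differ in how well they bind. CTCFL had 7 probe sets and none reached the array median. The 1 that passed background on any array did so in Caco-2 only, where it read 5.09 with BORIS and 5.07 with control siRNA, so these values give no check of the siRNA labels. Both lines carried EPCAM at 12.10 or above and KRT8 at 12.67 or above. The villin gene VIL1 stood at 2.77 and 3.68 in HCT116 with BORIS and control siRNA, below background, and at 9.33 and 9.57 in Caco-2. CDX1 and CDH17 lay below background on all 4 arrays, as did all 5 fibroblast markers. Of the 4 blood markers only LYZ passed background, at 13.12 and 13.26 in Caco-2 with BORIS and control siRNA, and of the 3 endothelial markers only VWF did, at 5.37 to 6.05 on the 4 arrays; PTPRC, CD3E, CD14, PECAM1 and CDH5 lay below it throughout. LYZ is also a gene of intestinal Paneth cells, and its part in the line differences was not tested.

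The primary transcript of DGCR8 itself contains microRNA hairpins that the microprocessor can cut, a textbook feedback on its own mRNA. Their mature sequences and those of the hairpin within DICER1 are shown because a change of these transcripts is also a change of a microRNA host. They are from RefSeq on GRCh38.p14, with the seed, bases 2 to 8, in capitals. The arrays measured the host transcripts and not the mature microRNAs. hsa-miR-3618 lies at chr22:20085797-20085818 and the 2 strands of hsa-miR-1306 at chr22:20086072-20086093 and chr22:20086112-20086129, all on the plus strand within DGCR8. The 2 strands of hsa-miR-3173 lie at chr14:95137961-95137982 and chr14:95137923-95137944 on the minus strand within DICER1. The 5 sequences have 5 different seeds.
hsa-miR-3618: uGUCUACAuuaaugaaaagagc
hsa-miR-1306-5p: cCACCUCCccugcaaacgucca
hsa-miR-1306-3p: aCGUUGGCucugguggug
hsa-miR-3173-5p: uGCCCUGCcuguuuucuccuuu
hsa-miR-3173-3p: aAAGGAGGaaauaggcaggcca

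TNRC6A, the founding GW182 gene, was lower with BORIS siRNA in both lines, and in HCT116 its difference was the largest among the 10 genes. Its representative probe set read 7.93 with BORIS siRNA and 9.36 with control siRNA in HCT116, a log2 difference of -1.44, which leaves 37.0% of the control level. In Caco-2 it read 8.33 with BORIS siRNA and 8.81 with control siRNA, a difference of -0.48, or 71.8% of control. In RNA of a whole culture, fewer cells with a transcript and less of it per cell cannot be told apart. The HCT116 array with BORIS siRNA was thus the lowest of the 4 and the HCT116 control array the highest. In HCT116 TNRC6A ranked 22 from the lowest of 10631 expressed genes, and in Caco-2 it ranked 255 from the lowest of 10389.

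The other 3 bright TNRC6A probe sets gave the same direction. The probe set designed on AK001773.1 read 7.0 with BORIS and 8.72 with control siRNA in HCT116, and 7.56 and 7.84 in Caco-2. The one designed on NM_014494.2 read 6.86 with BORIS and 8.55 with control siRNA in HCT116, and 7.45 and 7.77 in Caco-2. The one designed on AY035864.1 read 7.36 with BORIS and 8.52 with control siRNA in HCT116, and 7.37 and 7.74 in Caco-2. On each of the 4, the HCT116 array with BORIS siRNA was the lowest and the HCT116 control array the highest. The differences of the 4 ran between -1.72 and -1.16 in HCT116 and between -0.48 and -0.28 in Caco-2. The 2 remaining TNRC6A probe sets, both designed on AK299905.1, lay between 2.43 and 3.26, below background on every array, and have no fold. Of the 1685 genes with 4 or more expressed probe sets in HCT116, 1 had all of them lower at 2-fold or more, 0.0593%, and that gene was TNRC6A. All expressed probe sets were lower, by any amount, for 30.5% of these genes in HCT116, TNRC6A, DICER1 and DROSHA among them, and for 15.2% of the 1723 such genes in Caco-2, TNRC6A among them. With a minimum of 3 expressed probe sets, all of them were lower at 2-fold or more for 2 of 3369 genes, TNRC6A and the growth factor-like matrix gene CCN2. These counts were made after the values had been seen. The minimum of 4 is also TNRC6A's own number of expressed probe sets. Its 4 probe sets read the same cultures and are not replicates, so the counts are a description.

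The 250 bases before the start that RefSeq gives for TNRC6A, chr16:24729401-24729650 on the plus strand of GRCh38.p14, are shown because TNRC6A carries the largest difference and the targeted protein binds DNA. CpG dinucleotides are in capitals.
TNRC6A: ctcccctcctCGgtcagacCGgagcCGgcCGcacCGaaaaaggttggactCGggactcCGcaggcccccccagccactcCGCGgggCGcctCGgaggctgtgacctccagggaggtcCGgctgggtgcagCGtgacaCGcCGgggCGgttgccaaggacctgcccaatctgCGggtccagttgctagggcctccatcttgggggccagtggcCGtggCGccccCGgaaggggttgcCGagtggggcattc
The window holds 21 CpG, against a median of 11 over all 35116 such windows, and 30.2% of windows hold as many or more. A short and a long form of the CTCF core motif were searched on both strands, and they matched 2.02% and 0.0513% of all windows. Neither matched any of the 16 windows of the 9 member genes searched, which says only that these letters are not in these windows.

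**Figure D1:**
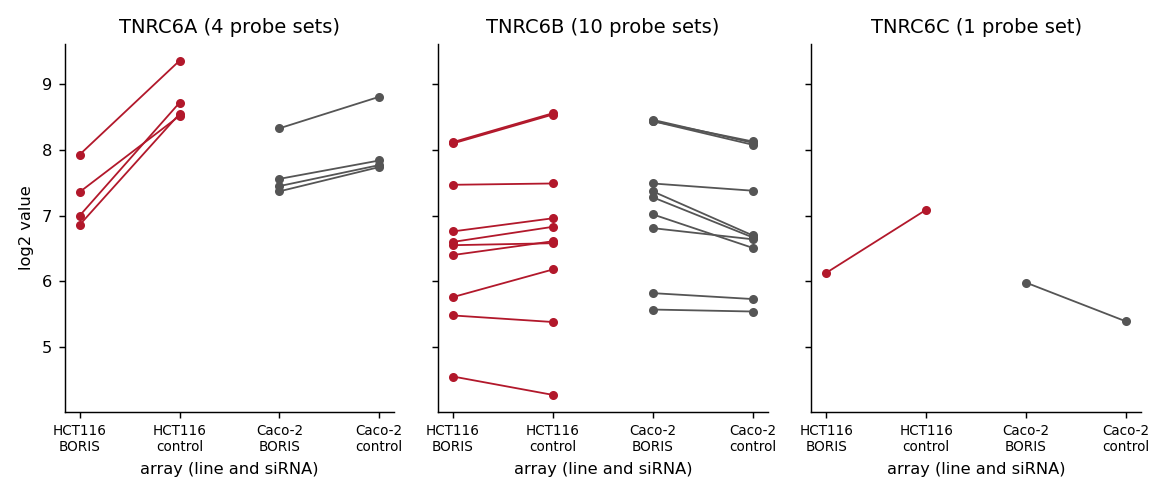
Log2 value (vertical axis) of each TNRC6A, TNRC6B and TNRC6C probe set expressed in at least 1 line on the 4 arrays (horizontal axis), with a line joining BORIS siRNA to control siRNA within HCT116 (red) and Caco-2 (grey). All 4 TNRC6A probe sets were lower with BORIS siRNA in both lines, whereas the 10 TNRC6B probe sets were each higher with BORIS siRNA in Caco-2.

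TNRC6B, a paralog with the same Argonaute-binding role, differed in opposite directions in the 2 lines. Its representative probe set read 8.12 with BORIS and 8.56 with control siRNA in HCT116, a difference of -0.44, and 8.46 with BORIS and 8.11 with control siRNA in Caco-2, a difference of 0.35. In Caco-2 all 10 TNRC6B probe sets were expressed and all 10 were higher with BORIS siRNA, by 0.03 to 0.66. Of the 1723 genes with 4 or more expressed probe sets in Caco-2, 28.9% had all of them higher. In HCT116, 8 of the 9 expressed TNRC6B probe sets were lower and 1 higher, between -0.44 and 0.10, and 6 were lower and 3 higher after quantile normalization or a loess correction. The probe set designed on BF594371 had the largest difference in Caco-2, with 7.37 against 6.70, and read 5.76 against 6.18 in HCT116. The probe sets designed on AK304087.1 and AI681177 differed by 0.61 and 0.51 in Caco-2 and by -0.21 and -0.23 in HCT116.

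TNRC6C, the other paralog, also differed in opposite directions. Its 1 expressed probe set read 6.13 with BORIS and 7.09 with control siRNA in HCT116, a difference of -0.96, and 5.98 with BORIS and 5.39 with control siRNA in Caco-2, a difference of 0.59. The HCT116 control array was the highest and the Caco-2 control array the lowest, with both BORIS siRNA arrays between them. The 2 other TNRC6C probe sets lay at or under 4.58, below background on every array. TNRC6C therefore rests on 1 probe set, and its level with BORIS siRNA was 51.5% of control in HCT116 and 151% in Caco-2. The difference between the lines in the siRNA effect was -0.96 for TNRC6A, -0.79 for TNRC6B and -1.55 for TNRC6C, each taken as HCT116 minus Caco-2. It has no test, since 1 array stood for each group, and 3.12% of all genes had a value at or below that of TNRC6A.

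Among the Argonaute genes, the representative probe sets of AGO1, AGO2 and AGO3 differed less between siRNAs than that of TNRC6A in both lines. AGO2, the slicing Argonaute, has 1 probe set, which read 7.38 with BORIS and 7.67 with control siRNA in HCT116 and 8.38 with BORIS and 8.41 with control siRNA in Caco-2. AGO1 has 1 probe set of its own, which read 5.52 with BORIS and 5.76 with control siRNA in HCT116 and 6.32 with BORIS and 6.34 with control siRNA in Caco-2. For AGO2 the siRNA differences were -0.29 in HCT116 and -0.03 in Caco-2, and for AGO1 they were -0.23 and -0.02. The 2 genes thus read lower on the HCT116 arrays than on the Caco-2 arrays, whichever siRNA was used, and the 2 lines did not overlap.

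AGO3, whose protein retains the slicer residues of AGO2, has 4 probe sets. The representative one read 7.68 with BORIS and 7.85 with control siRNA in HCT116, and 8.11 with BORIS and 7.95 with control siRNA in Caco-2. In Caco-2 all 4 were expressed and higher with BORIS siRNA, by 0.06 to 0.35. In HCT116 the 3 expressed ones differed by -0.20, -0.17 and 0.12, so the direction depended on the probe set.

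AGO4 was measured above background by 1 of its 4 probe sets. It read 4.80 with BORIS and 5.65 with control siRNA in HCT116, and 6.48 with BORIS and 6.83 with control siRNA in Caco-2. The HCT116 array with BORIS siRNA lay below the background of 5.15 on that array, so the measured difference of -0.85 is given as a bound of -0.50 or lower. In Caco-2 the difference was -0.35. The other 3 AGO4 probe sets lay between 3.43 and 4.89 and below background on every array.

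**Figure D2:**
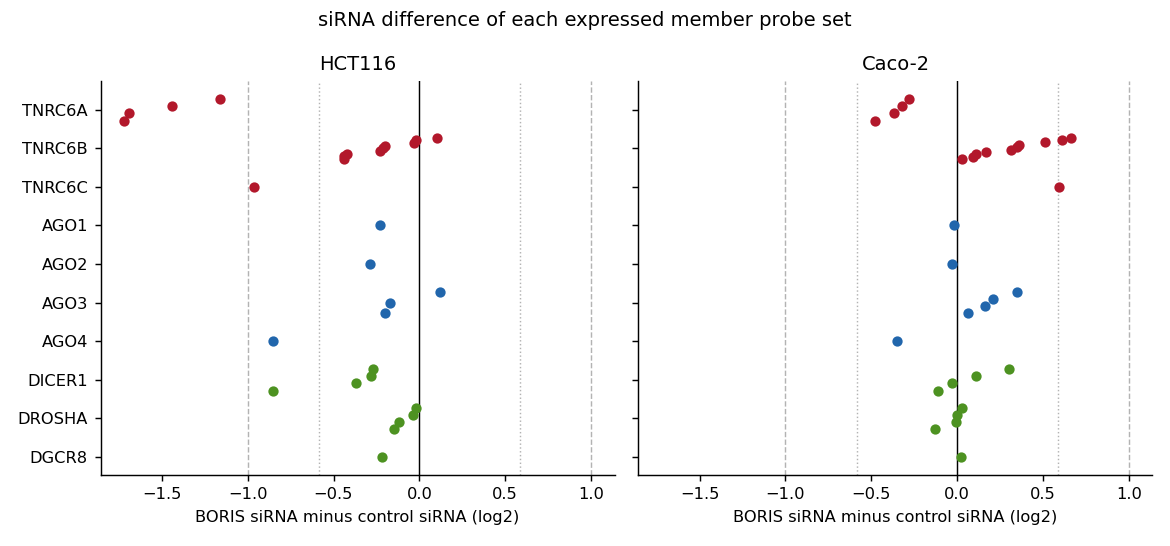
Log2 difference of BORIS siRNA minus control siRNA (horizontal axis) of every expressed probe set of the 10 genes (rows), in HCT116 (left) and Caco-2 (right), with dotted lines at 1.5-fold and dashed lines at 2-fold. The 4 TNRC6A probe sets in HCT116, between -1.72 and -1.16, are the only points beyond 2-fold.

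DICER1, the cytoplasmic nuclease of the pathway, had 4 expressed probe sets, and all 4 were lower with BORIS siRNA in HCT116. The representative one, designed on NM_177438.2, read 7.66 with BORIS and 8.51 with control siRNA in HCT116, a difference of -0.85 or 55.6% of control, and 8.19 with BORIS and 8.22 with control siRNA in Caco-2. The other 3 gave smaller differences in HCT116, of -0.37, -0.28 and -0.27. In Caco-2 2 were lower and 2 higher, from -0.11 to 0.30. The size in HCT116 thus depends on the probe set: it was -0.44 as the mean of all 4 and -0.27 without the _x_at and _s_at kinds, which can bind related transcripts.

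DROSHA and DGCR8, the subunits of the microprocessor, differed little between siRNAs. The representative DROSHA probe set read 8.94 with BORIS and 9.08 with control siRNA in HCT116, and 10.02 on both Caco-2 arrays. Its 4 expressed probe sets differed by -0.15 to -0.02 in HCT116 and by -0.13 to 0.03 in Caco-2. DGCR8 read 7.57 with BORIS and 7.79 with control siRNA in HCT116, and 7.48 with BORIS and 7.46 with control siRNA in Caco-2, on the 1 of its 2 probe sets that was expressed. The sign of the DGCR8 difference in Caco-2, 0.02, turned to -0.04 after quantile normalization and -0.01 after the loess correction.

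Counted together, 7 of the 29 expressed member probe sets were lower with BORIS siRNA at 1.5-fold or more in HCT116, where 8.85% of all 23586 expressed probe sets were, and 0 were higher, where 4.94% were. At 2-fold or more 4 were lower, all of them TNRC6A, where 1.40% of all were, and 0 were higher, where 0.640% were. The other 3 at 1.5-fold belong to TNRC6C, AGO4 and DICER1. In Caco-2, 3 of 31 were higher at 1.5-fold, 2 of TNRC6B and 1 of TNRC6C, where 3.11% of all 23365 were, and 0 were lower, where 1.03% were. At 2-fold, 0 were lower and 0 higher in Caco-2, where 0.0856% and 0.389% of all were. Nothing is read from these shares, since the genes were chosen with these differences known.

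By gene, all 10 were lower with BORIS siRNA in HCT116, with a median of -0.363, where 55.4% of all 10631 expressed genes were lower with a median of -0.048. In Caco-2, 6 were lower and 4 higher, with a median of -0.011 against 0.003 over all 10389 expressed genes. At 1.5-fold, 4 genes were lower in HCT116, TNRC6A, TNRC6C, AGO4 (whose bound of -0.50 is short of 1.5-fold) and DICER1, where 9.18% of all were, and 1 was higher in Caco-2, TNRC6C, where 2.78% of all were. All 10 were also lower in HCT116 after quantile normalization and after the loess correction; without the _x_at and _s_at kinds 8 of 9 were, AGO3 standing at 0.12. Beside the HCT116 differences, the 27 poly-A spike-in probe sets averaged 7.84 with BORIS and 7.07 with control siRNA there, a difference of 0.77, and the 16 hybridization controls 10.53 and 10.16. In Caco-2 the poly-A spike-ins averaged 6.29 with BORIS and 6.35 with control siRNA. The log2 value of the 3′ minus the 5′ control probe sets of ACTB was 1.47 with BORIS and 1.34 with control siRNA in HCT116. In Caco-2 it was 0.97 and 1.05. That of GAPDH was 0.04 or less on every array. The part of these array differences in the member values was not tested.

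**Figure D3:**
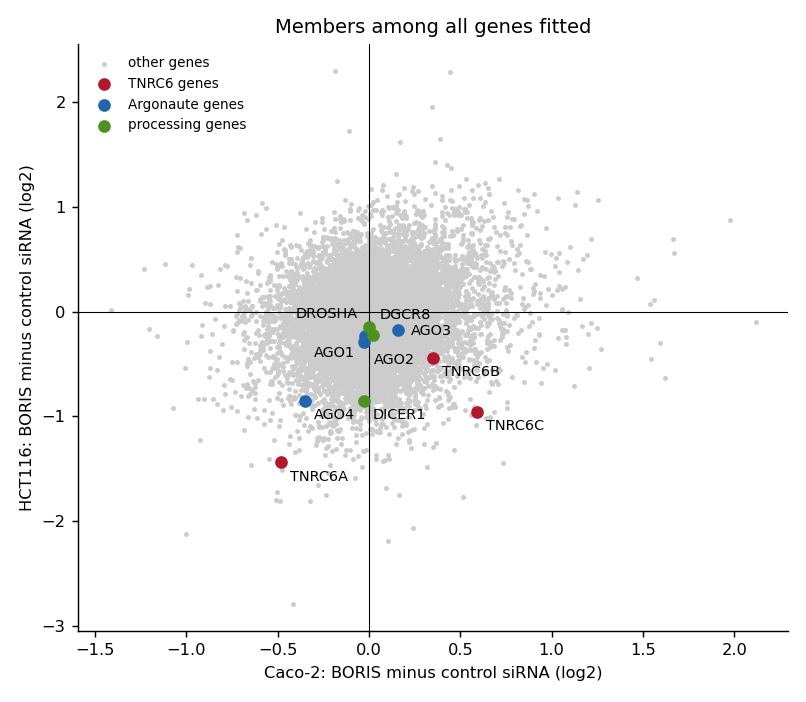
Log2 difference of BORIS siRNA minus control siRNA in HCT116 (vertical axis) against that in Caco-2 (horizontal axis) for the 11165 genes fitted (grey), with the 10 members in colour by role. All 10 members lie below 0 on the HCT116 axis, TNRC6A at -1.44 being the lowest. TNRC6B, TNRC6C, AGO3 and DGCR8, the last at 0.02, lie to the right of 0 on the Caco-2 axis.

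The 5 genes whose values over the 4 arrays were most like those of TNRC6A were found by Euclidean distance after centring each gene on its own mean, among 11164 genes with a median distance of 1.22. JCAD, an endothelial junction gene, was closest at 0.13, with 5.27 and 6.73 in HCT116 with BORIS and control siRNA and 5.65 and 6.30 in Caco-2. FAM168B followed at 0.23, the metalloproteinase inhibitor gene TIMP2 at 0.27, the Mediator subunit gene MED24 at 0.30 and the immediate early transcription factor gene EGR1 at 0.32. Each was lower with BORIS siRNA in both lines, with differences of -1.72 to -1.09 in HCT116. Among the other members DICER1 was nearest, at 0.56 and rank 72, followed by TNRC6B at 0.92 and rank 1452. With 4 arrays this likeness is a description.

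The comparison of the lines asked whether the pathway stood at other levels in HCT116 than in Caco-2, and it was tested with limma over all 4 arrays with siRNA as a block and Benjamini-Hochberg adjustment over 11165 genes. AGO1, AGO2, AGO4 and DROSHA were lower in HCT116, and 0 members were higher past the test. By background, 19.8% of all genes were lower and 19.4% higher. DROSHA averaged 9.01 in HCT116 and 10.02 in Caco-2, a difference of -1.01 (SE 0.17, limma adjusted p = 0.00434). All 4 expressed DROSHA probe sets were lower in HCT116, between -1.01 and -0.89. They include _x_at kinds, and the representative one shares its design sequence with an _x_at one. Without the _x_at and _s_at kinds the DROSHA difference was also -1.01. The DROSHA partner DGCR8 averaged 7.68 in HCT116 and 7.47 in Caco-2 (limma adjusted p = 0.407).

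AGO4 averaged 5.23 in HCT116 and 6.66 in Caco-2, a difference of -1.43 (SE 0.23, limma adjusted p = 0.00384), with 1 of the 2 HCT116 arrays below background. With that array set at its background, the difference is -1.25 or lower. AGO2 averaged 7.53 in HCT116 and 8.39 in Caco-2, a difference of -0.87 with a standard error of 0.18 (limma adjusted p = 0.0109). AGO1 averaged 5.64 in HCT116 and 6.33 in Caco-2, a difference of -0.69 with a standard error of 0.21 (limma adjusted p = 0.0378, and 0.0615 without a filter on dim probe sets). For each of these 3 the call rests on 1 probe set. AGO3 averaged 7.76 in HCT116 and 8.03 in Caco-2 (limma adjusted p = 0.309). All 4 AGO3 probe sets were lower in HCT116, between -1.84 and -0.12, and as the mean of its probe sets AGO3 stood at -0.64 (limma adjusted p = 0.0135). The probe set at -1.84 read 3.54 with BORIS and 3.95 with control siRNA in HCT116, below background on both arrays. Its fold is therefore not a measured one, and it enters that mean.

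TNRC6A and TNRC6B did not pass the test of the line difference, at 0.08 with a standard error of 0.26 (limma adjusted p = 0.837) and 0.06 with a standard error of 0.23 (0.86). On the representative probe set of both, the direction between the lines depended on the siRNA. With control siRNA TNRC6A read 9.36 in HCT116 and 8.81 in Caco-2, and with BORIS siRNA 7.93 and 8.33. TNRC6B read 8.56 and 8.11 with control siRNA, and 8.12 and 8.46 with BORIS siRNA. Most of the 10 TNRC6B probe sets were instead lower in HCT116 with either siRNA. An example read 7.49 in HCT116 and 8.08 in Caco-2 with control siRNA, and 7.47 and 8.44 with BORIS siRNA. By the mean of the 2 arrays of each line, TNRC6B differed in sign between probe sets. On that measure 8 of 10 were lower in HCT116, with a range of -1.14 to 0.06. The probe set at -1.14 read 4.55 with BORIS and 4.27 with control siRNA in HCT116, below background on both arrays. TNRC6C averaged 6.61 in HCT116 and 5.68 in Caco-2, a difference of 0.93 with a standard error of 0.36 (limma adjusted p = 0.0876), and passed after quantile normalization at 0.98 (limma adjusted p = 0.000507). DICER1 averaged 8.09 in HCT116 and 8.20 in Caco-2 (limma adjusted p = 0.729). On its representative probe set DICER1 was likewise higher in HCT116 with control siRNA, 8.51 against 8.22, and lower with BORIS siRNA, 7.66 against 8.19. Another DICER1 probe set was higher in HCT116 with either siRNA, 7.15 against 6.67 with control and 6.88 against 6.56 with BORIS siRNA. The arrays of the 2 lines did not overlap for 7 of the 10 genes, and for 71.1% of all genes, so non-overlap is common between these lines. The 2 arrays of a line are different cultures with different siRNAs, and nothing says that a line was sampled more than once per siRNA. These p-values rest on 1 residual degree of freedom, the disagreement between the lines in their siRNA difference, moderated over all genes. They do not measure the spread between cultures of a line.

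**Figure D4:**
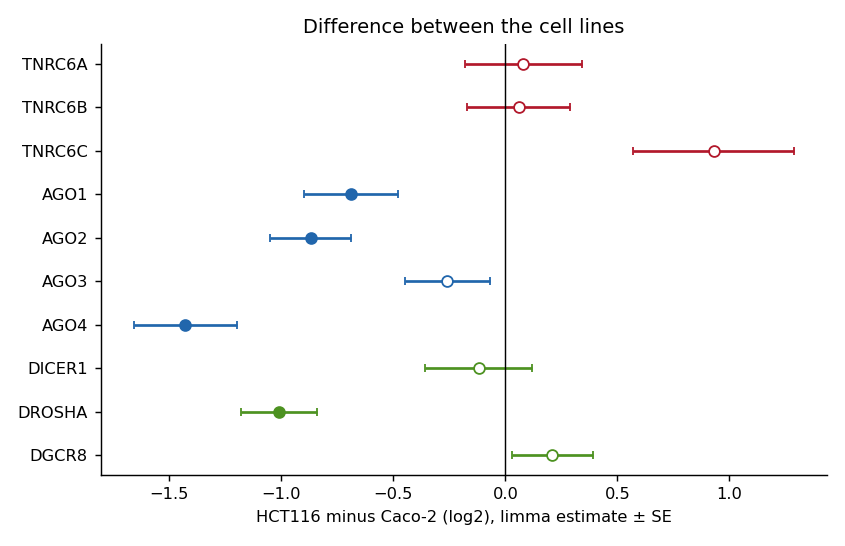
Limma estimate of the HCT116 minus Caco-2 difference on the log2 scale (horizontal axis, bars are standard errors, 2 arrays a line) for the 10 genes (rows), with filled points where the adjusted p was under 0.05. AGO1, AGO2, AGO4 and DROSHA are filled and lie between -1.43 and -0.69.

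No gene passed the test of an siRNA effect shared by both lines in the same fit, 0 of 11165 with 670 at an unadjusted p under 0.05, and so 0 of the 10 members. TNRC6A, lower in both lines, had a fitted shared difference of -0.96 (SE 0.26, limma adjusted p = 0.769), and the adjusted p was 0.00555 after quantile normalization. The fit has 1 residual degree of freedom, and its residual is the disagreement between the lines.

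The other genes of the pathway were described from a list of 81, of which 73 were on the array. In HCT116, 44 of 64 expressed genes were lower and 20 higher with BORIS siRNA, with a median of -0.196, and 7 were lower and 2 higher at 1.5-fold. In Caco-2, 29 of 66 were lower and 37 higher, with a median of 0.020, and 0 were lower and 2 higher at 1.5-fold. Over all expressed genes, 55.4% were lower in HCT116 and 49.4% in Caco-2 by any amount, and at 1.5-fold 9.18% were lower and 4.36% higher in HCT116 and 1.14% and 2.78% in Caco-2. The direction counts of each list below stand against these shares and have no test.

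Effectors of silencing and related factors, taken as 1 list, were lower in 23 of 29 cases in HCT116 with a median of -0.239, and in 9 of 29 cases in Caco-2 with a median of 0.065. The 5 lower at 1.5-fold in HCT116 were DCP1A, PATL1, AJUBA, ZSWIM8 and CNOT1, the last 2 named after their values had been seen. DCP1A, a decapping factor, read 8.55 with BORIS and 9.45 with control siRNA in HCT116 and 8.56 and 8.77 in Caco-2. PATL1, a decapping activator, read 7.38 with BORIS and 8.22 with control siRNA in HCT116 and 8.78 and 8.70 in Caco-2, and stood at -0.34 in HCT116 as the mean of its probe sets. CNOT1, the scaffold of the deadenylase complex, read 8.04 with BORIS and 8.64 with control siRNA in HCT116 and 8.49 and 8.48 in Caco-2. Of the 11 CNOT genes listed, 9 were lower and 2 higher in HCT116, with a median of -0.20. The higher ones were CNOT2, at 0.00 after rounding, and CNOT10 at 0.41. In Caco-2, 2 were lower and 9 higher with a median of 0.04, CNOT4 standing at 0.32.

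The decapping enzyme gene DCP2 went the other way from its partner DCP1A. It read 9.33 with BORIS and 8.89 with control siRNA in HCT116 and 9.52 with BORIS and 8.50 with control siRNA in Caco-2, a difference of 0.43 and 1.02, or 0.18 and 0.61 as means of its 5 probe sets. The deadenylase gene PAN2 read 6.00 with BORIS and 5.61 with control siRNA in HCT116 and 6.18 with BORIS and 5.52 with control siRNA in Caco-2. Both were thus higher with BORIS siRNA in each line, and these were the 2 genes of the list past 1.5-fold in Caco-2. The helicase and Argonaute partner gene MOV10 read 7.69 with BORIS and 8.25 with control siRNA in HCT116, and 8.52 with BORIS and 8.18 with control siRNA in Caco-2.

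Of the 12 expressed microprocessor partners, export and decay factors, 6 were lower and 6 higher in HCT116. There the RNA methyltransferase gene METTL3 stood at 0.76, the editing enzyme gene ADAR at -0.59 and the microprocessor helicase gene DDX17 at -0.45 (-0.24 as the mean of its probe sets), and in Caco-2 they stood at -0.12, -0.08 and 0.02. The largest in Caco-2 were the uridylyltransferase gene TUT7 at 0.26, HNRNPA1 at 0.17 and the exonuclease gene DIS3L2 at -0.15, whose direction turns to 0.12 as the mean of its 4 probe sets. Dicer partners and loading factors were lower in 10 of 13 cases in HCT116 with a median of -0.171. Among them, besides MOV10, GEMIN4 stood at -0.38 and the nuclease gene SND1 at -0.36. In Caco-2, 7 of 13 were lower, with TARBP2, which encodes the Dicer partner TRBP, at -0.33 and PRKRA, which encodes PACT, at -0.26. Of the 66 genes of these lists in the line fit, 6 were higher and 12 lower in HCT116, where 19.4% and 19.8% of all genes were, among them SND1 at -1.03 (limma adjusted p = 0.007), TNKS1BP1 at -1.22 (limma adjusted p = 0.0051) and the decapping factor gene DCP1B at 1.29 (limma adjusted p = 0.00358), of which TNKS1BP1 and DCP1B were named after their values had been seen.

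**Figure D5:**
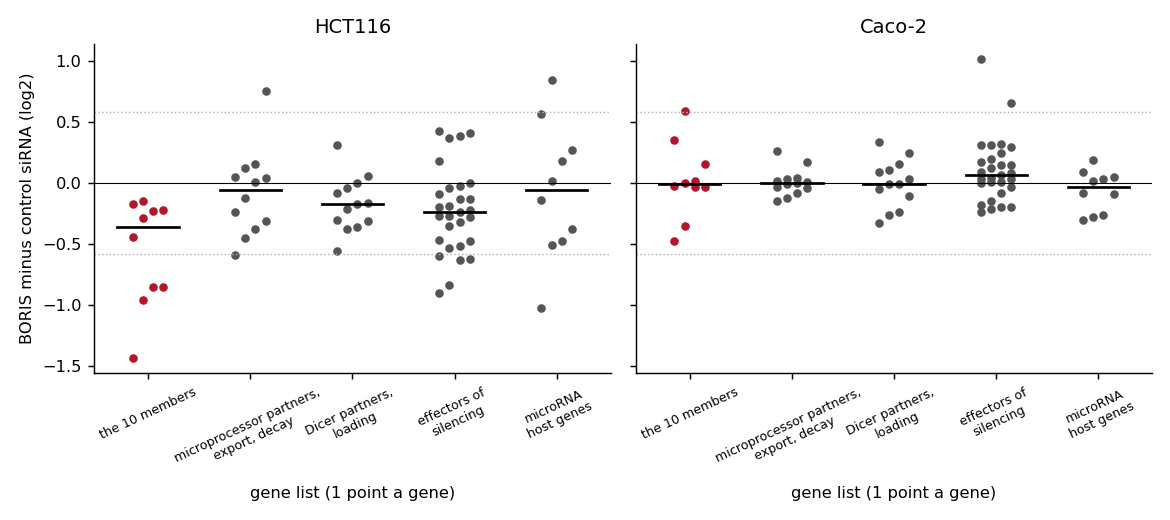
Log2 difference of BORIS siRNA minus control siRNA (vertical axis) of each expressed gene of the 10 members (red) and of 4 lists of other pathway genes (grey), in HCT116 (left) and Caco-2 (right), with black bars at the median and dotted lines at 1.5-fold. The members' median was -0.363 in HCT116 and -0.011 in Caco-2, and that of the effectors of silencing -0.239 and 0.065.

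Host genes of microRNAs gave 5 lower and 5 higher of 10 expressed in each line, with 8 of the 20 listed hosts having no probe set of their own. Of the 10, the 3 with the largest differences in HCT116 were CTDSP2, DLEU2 and PANK3. Sequences of their mature microRNAs are shown with the seed in capitals. The sequences come from RefSeq on GRCh38.p14. CTDSP2, host of hsa-miR-26a, read 8.27 with BORIS and 9.30 with control siRNA in HCT116 and 9.81 and 9.78 in Caco-2, and stood at -0.61 in HCT116 as the mean of its 6 probe sets. DLEU2, host of hsa-miR-15a and hsa-miR-16, read 9.67 with BORIS and 8.82 with control siRNA in HCT116 and 6.94 and 7.23 in Caco-2, and stood at 0.29 in HCT116 and -0.19 in Caco-2 as the mean of its 3. PANK3, host of hsa-miR-103a, a microRNA known to target DICER1, read 7.87 with BORIS and 7.30 with control siRNA in HCT116 and 8.40 and 8.30 in Caco-2. As the mean of its 3 probe sets PANK3 stood at 0.39 in HCT116. PANK2, another host of hsa-miR-103a, stood at 0.27 in HCT116 and 0.02 in Caco-2. The part of hsa-miR-103a in the DICER1 values was not tested. The PANK1 microRNA hsa-miR-107 shares the seed of hsa-miR-103a, and PANK1 stood at 0.02 in HCT116 and 0.05 in Caco-2.
hsa-miR-26a-5p: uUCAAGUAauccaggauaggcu
hsa-miR-15a-5p: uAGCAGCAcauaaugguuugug
hsa-miR-16-5p: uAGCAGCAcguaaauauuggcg
hsa-miR-103a-3p: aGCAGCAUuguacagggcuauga
hsa-miR-107: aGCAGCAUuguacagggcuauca
In the line fit CTDSP2 and PANK3 were lower in HCT116, at -1.01 and -0.77 (limma adjusted p = 0.0249 and 0.0234), and DLEU2 was higher at 2.16 (limma adjusted p = 0.00187). CTDSP1, host of hsa-miR-26b, stood at -0.51 in HCT116 and -0.26 in Caco-2, or -0.27 and -0.12 as means of its 2 probe sets. CTDSPL, another hsa-miR-26a host, stood at -0.38 in HCT116 and -0.28 in Caco-2, and at -0.18 and -0.29 as means of its 3.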

How the data were processed

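The authors deposited log2 expression values per probe set for 4 PrimeView arrays, 1 for each cell line and siRNA. The unit follows from the values, 2.13 to 14.17, and no quartile differed between arrays by more than 0.129. Per the labels' protocols, RNA was extracted with TRIzol and labelled with a 3′ in vitro transcription kit. No label names the background correction, normalization or summarisation. Gene names came from the annotation of the platform, in which 44988 of 49395 were paired with 1 gene, 1832 with several and 2569 were not listed; 6 control probe sets were left out. Looking symbols up by Entrez ID in RefSeq changed 0.

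Differences are log2 values with BORIS siRNA minus control siRNA. limma 3.58.1 in R 4.3.3 (lmFit, eBayes with trend) was fitted to all 11165 genes expressed on at least 1 array, with line and siRNA as terms, at an adjusted p of 0.05. In each of 10 simulated sets of 11165 genes, 100 genes were raised 2-fold and 100 raised 4-fold in HCT116, with independent normal noise. The line test recovered 91.1% of 2-fold and 100% of 4-fold changes, and unchanged genes made up 9.43% of calls, above the nominal 5%. In the data 19.4% of genes were called higher and 19.8% lower in HCT116, far more than were shifted, so these rates may not carry over. The members and lists were chosen with earlier results of these data known. Named genes were the 10 members, up to 3 per list and line with the largest siRNA difference, and the 5 genes most like TNRC6A. Alternatives were 2 other filters on dim probe sets, quantile normalization, a loess correction (span 0.4), leaving out _x_at and _s_at probe sets, averaging a gene's probe sets, and eBayes without trend. The number of arrays limits the precision.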

Additional observations from a re-analysis of the deposited data

Results flagged for a closer look

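Of the 10 genes, 4 differed in opposite directions in the 2 lines, and these differences were not tested, since each group holds 1 array. The siRNA difference of TNRC6C was -0.96 in HCT116 and 0.59 in Caco-2, a gap of -1.55. For TNRC6B it was -0.44 and 0.35, a gap of -0.79. For AGO3 it was -0.17 and 0.16, a gap of -0.33, and for DGCR8 -0.22 and 0.02, a gap of -0.24. The opposite signs did not hold under every setting for 2 of the 4. DGCR8 in Caco-2 stood at -0.04 after quantile normalization, -0.01 after the loess correction and -0.10 as the mean of its probe sets, and AGO3 in HCT116 stood at 0.12 without the _x_at and _s_at kinds. Among the 9855 genes expressed in both lines, 45.6% differed in opposite directions.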

How the results depend on the processing

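TNRC6A was lower in HCT116 under every setting tried, between -1.44 and -1.05, and in Caco-2 between -0.53 and -0.25. This was not particular to TNRC6A. Every other member but AGO3 was also lower in HCT116 under each setting that kept it as expressed. In Caco-2 AGO1, AGO2, AGO4 and DROSHA stayed lower too, DROSHA reaching only -0.01. Without a filter on dim probe sets, 1 member probe set was lower at 1.5-fold in Caco-2 in place of 0. That probe set, of AGO4, lay below background on both Caco-2 arrays, so its fold is not a measured one. After quantile normalization 1 member probe set in place of 3, and 0 genes in place of 1, were higher at 1.5-fold in Caco-2. After quantile normalization and after the loess correction, 1 member in place of 0 passed the test of a shared siRNA effect, TNRC6A at -0.95 with limma adjusted p of 0.00555 and 0.00269, and 1 in place of 0 was higher in HCT116 than in Caco-2, TNRC6C. Over all genes the shared effect then gave 44 higher and 38 lower genes after quantile normalization and 62 and 50 after the loess correction, in place of 0. Without the _x_at and _s_at kinds, 4 member probe sets in place of 7 were lower at 1.5-fold in HCT116 and 2 in place of 4 at 2-fold, since 17 in place of 29 were expressed. Averaging a gene's probe sets, 8 members were expressed, the HCT116 median was -0.20 in place of -0.36, 1 gene in place of 4 was lower at 1.5-fold in HCT116, and 0 in place of 1 were higher in Caco-2. The cause of the changes with scaling was not tested. No paired analysis by replicate number was possible because the labels give none and each group holds 1 array; the limma fit pairs the 2 siRNAs by cell line.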

Other observations

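The 1 probe set that the annotation pairs with both AGO1 and AGO3 was left out of the members. It read 7.73 with BORIS and 7.77 with control siRNA in HCT116, and 9.57 with BORIS and 9.19 with control siRNA in Caco-2. PIWIL4, a germline paralog of the Argonaute genes, lay below background on both HCT116 arrays and read 6.69 with BORIS and 6.85 with control siRNA in Caco-2; PIWIL1, PIWIL2 and PIWIL3 were not expressed in either line.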
